A study of Danio rerio with 15 samples.

Results

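Brain RNA of female zebrafish (Danio rerio) after 56 days at 40 µg/L dibromoacetonitrile (DBAN) was compared with brain RNA of female controls at 0 µg/L. DBAN, a nitrile carrying bromine, is among the by-products of disinfecting drinking water. The comparison takes its members from the labels alone: 3 libraries of females at 40 µg/L and 3 of female controls, 6 of the 15 libraries of the series, with every gene of the count table. The remaining libraries are 3 of females at 200 µg/L, 3 of males at 40 µg/L and 3 of male controls. All fish, controls included, lived under 14 h of light and 10 h of dark, and poly(A) RNA was sequenced. The labels give no strain, age or hour of collection, nor do they tell whether fish were pooled for a library. The p-values thus cover the variation among libraries, which may be technical.

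The fish forebrain is laid out by transcription factors: in the telencephalon, eomesa and tbr1b mark the dorsal part, the pallium, and Dlx and Sp8/Sp9 factors the ventral part, the subpallium, where many GABAergic neurons arise. The circadian clock is a feedback loop in which the activators Clock and Bmal (arntl genes) switch on their own repressors, the Per, Cry and Ciart proteins, together with the Rev-erb receptors (nr1d genes), which in turn repress the arntl genes. Zebrafish tissues hold light-sensitive clocks of their own, and clock transcripts change with the hour of the day.

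The 6 libraries differed in depth and complexity. Totals were 44971484, 33198859 and 49388334 counts in replicates 1, 2 and 3 at 40 µg/L, against 18365050 to 22630829 in the controls. Genes with any count numbered 11883, 12876 and 11753 at 40 µg/L and 12413 to 12925 in the controls, so that replicates 1 and 3 detected fewer genes at greater depth. A gene was taken as rare for a library when 10 or more of the remaining 14 libraries had no count of it. The median count of such genes was 28, 8 and 35 at 40 µg/L and 8 to 11 in the controls. Of 10178 genes at 1 CPM (counts scaled to a common library total) or more in every control, 195, 22 and 211 were at 0 in replicates 1, 2 and 3 at 40 µg/L, and 4 were at 0 in all 3. Above 10 CPM the losses were 2, 1 and 5 of 6528 genes. The label "brain" held for the neuronal markers: none of 14 was at 0 in any library, and their summed level was 11505 to 12355 CPM at 40 µg/L and 11123 to 12223 CPM in the controls. Some defining genes of the telencephalon, tbr1b among them, were near 0 in the female controls, as given below. Values are therefore given by library throughout.

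With edgeR's quasi-likelihood test, 30 of 12601 genes tested had a Benjamini-Hochberg adjusted p under 0.05, here termed called, which is 0.238% of them. Of these, 12 rose (0.0952%) and 18 fell (0.143%), those that fell with log2 fold changes of -2.83 to -1.23, and adjusted p ran from 0.0117 to 0.0467. At all 30 the exposed libraries lay on 1 side of the controls. Without overlap between groups were also 25% of all genes tested, 11.3% with the 40 µg/L libraries higher and 13.7% with them lower. Over all genes tested 48.1% of log2 fold changes were positive and their median was -0.03.

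The number of calls rested on single libraries. No gene was called when 40 µg/L replicate 1 or 3, or control 1 or 3, was left out, although 1339 to 1472 genes then had an unadjusted p under 0.05 in edgeR's test. Leaving out control 2 gave 3 calls, and leaving out 40 µg/L replicate 2 gave 289. Leaving out replicate 1, 2 or 3 of the 200 µg/L females gave 2, 236 and 1. These libraries are in neither group compared, but enter the filter, the scaling and the estimate of the spread. The direction was the same for each of the 30 genes in all 22 alternatives, while every 1 of them lost its call in at least 7. nr1d1 held its call in 15 of the 22. With a covariate for the rare-gene median of each library, which differs most between the groups in replicates 1 and 3, 2 genes were called and 916 had an unadjusted p under 0.05.

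**Figure D1:**
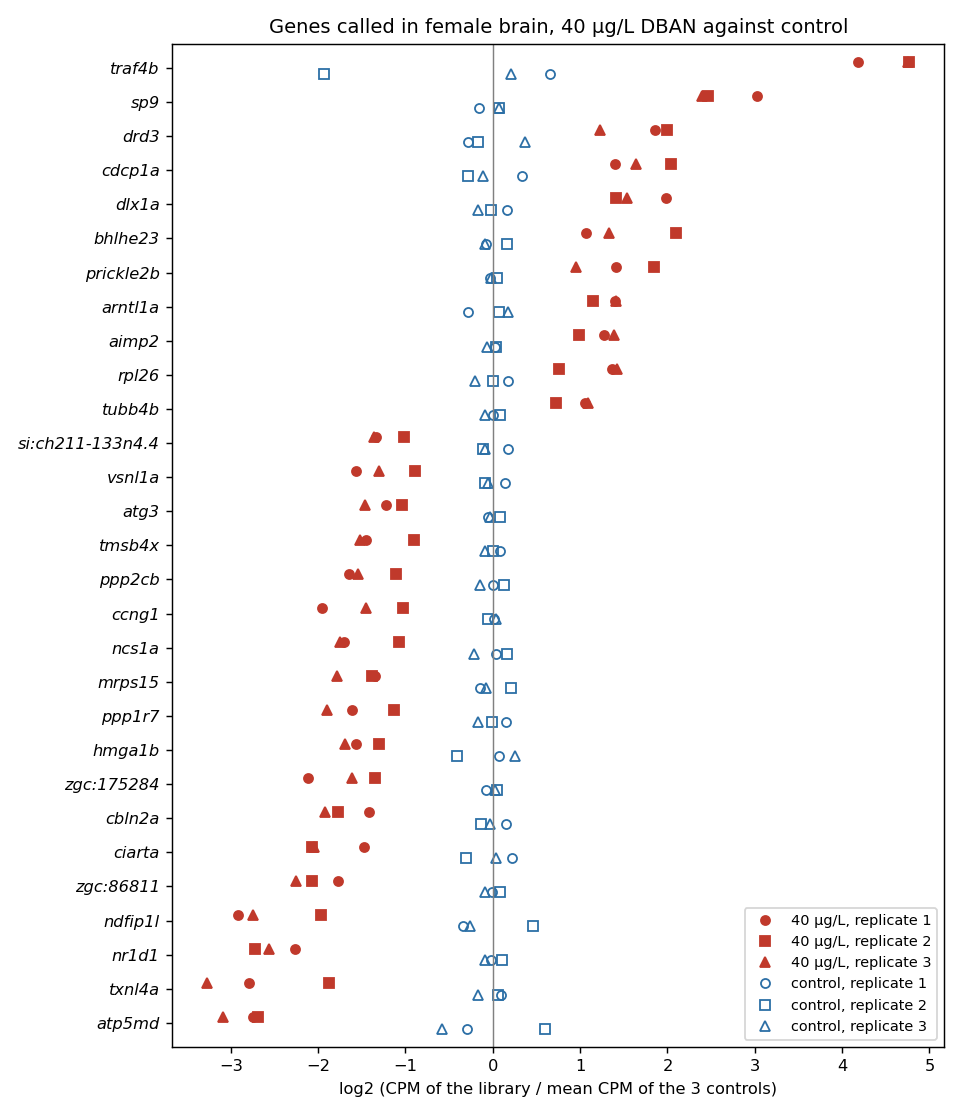
Called genes by library, 29 of them, as the log2 ratio of each library's CPM to the mean of the 3 controls (filled red symbols, 40 µg/L; open blue symbols, controls; the shape gives the replicate). The 40 µg/L symbols lie on 1 side of all 3 control symbols at every gene shown, and traf4b lies farthest to the right.

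Telencephalic transcription factor genes were higher at 40 µg/L, and in the female controls several were hardly detected. The 17 tested genes of the subpallium list all had positive log2 fold changes, with a median of 1.70 against -0.03 over all genes. This list, like the others, was chosen with earlier results of these data known, so its counts only describe the data. It also holds a receptor gene, drd3. At 15 of the 17 genes (88.2%, against 11.3% of all genes) the 40 µg/L libraries lay above all controls. They lay below them at 0, against 13.7% of all genes. Of the 17 genes 4 were called as higher, against 0.0952% of all genes. sp9, a zinc finger factor of developing striatal and interneuron lineages (chromosome 9, 2591966 to 2594394), was at 102, 68.8 and 65.9 CPM at 40 µg/L, against 11.2, 13.1 and 13.2 CPM in the controls. All 3 exposed values of sp9 lay far above the controls, and the gene rose 6.30-fold (log2 2.66 ± 0.33, adjusted p = 0.0383). dlx1a, a homeobox gene of GABAergic neurons on the same chromosome (3388099 to 3390106), was at 154, 104 and 112 CPM at 40 µg/L and 43.5, 38.3 and 34.6 CPM in controls. It rose 3.17-fold (log2 1.67 ± 0.24, adjusted p = 0.0467). drd3, which encodes the dopamine D3 receptor, was at 52.8, 57.9 and 34.2 CPM at 40 µg/L, against 11.9, 12.9 and 18.8 CPM in the controls. bhlhe23, a basic helix-loop-helix factor gene, was at 91.6, 187 and 109.9 CPM at 40 µg/L, against 41.3, 48.9 and 41.0 CPM in the controls. drd3 rose 3.32-fold and bhlhe23 2.96-fold. The list's other members did not pass the test. dlx2a, the neighbour of dlx1a, was at 26.6, 20.4 and 13.0 CPM at 40 µg/L, against 11.3, 5.31 and 6.48 CPM in controls (adjusted p = 0.265). Summed over its 17 members the list stood at 754, 663 and 553 CPM in replicates 1, 2 and 3 at 40 µg/L and at 227, 195 and 200.3 CPM in the controls. Replicate 2 lay between the other 2 exposed libraries.

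Of 19 tested pallium genes 15 had positive log2 fold changes, with a median of 0.79, or 0.71 when emx1, at 0 in all controls, is set to its bound, with 3 times each library's rare-gene median as the floor. Without 40 µg/L replicate 2 the median was 0.43. In this and the later refits the filter on low counts was applied anew, so that list medians there can rest on other members. The 40 µg/L libraries lay above the controls at 8 genes (42.1%, against 11.3% of all genes) and below them at 1 (5.26%, against 13.7%). Of the 19 genes 1 was called, against 0.238% of all genes. eomesa, a T-box gene of the pallium, was at 351, 457 and 376 CPM at 40 µg/L and at 51.5, 19.5 and 33.1 CPM in the controls (log2 3.51 ± 0.75, adjusted p = 0.0801). The groups were far apart, but the value did not pass over all genes. tbr1b, a T-box gene of glutamatergic pallial neurons, was at 37.6, 112 and 32.5 CPM at 40 µg/L against 3.95, 1.47 and 3.61 CPM in controls (adjusted p = 0.137). In females at 200 µg/L tbr1b was at 8.41, 0 and 3.65 CPM. In male controls, which were scaled separately, tbr1b was at 22.1, 35.4 and 20.1 CPM and eomesa at 62.3, 120 and 62.7 CPM. bhlhe22, a helix-loop-helix factor gene, was at 80.3, 173 and 88.8 CPM at 40 µg/L against 30.0, 27.5 and 17.8 CPM in controls (adjusted p = 0.0505). tbr1b and bhlhe22 were both highest in replicate 2. emx3 was at 1.67, 7.58 and 3.80 CPM at 40 µg/L and at 0, 0 and 1.66 CPM in controls, and emx1 at 3.28, 0.849 and 0 CPM at 40 µg/L and at 0 in every control. Both lie too low for a fold. Summed, the list was at 1629, 2084 and 1742 CPM at 40 µg/L and at 1033 to 1264 CPM in the controls. Relative to the controls this rise was smaller than that of the subpallium sum. neurod2 and zbtb18, further factors of pallial neurons, had log2 fold changes of -0.47 and -0.21.

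For markers of the other brain regions the median log2 fold change was -0.10 over 21 genes of diencephalon and hypothalamus, -0.01 over 17 genes of midbrain and tectum and -0.26 over 24 tested genes of cerebellum and hindbrain. The cerebellum and hindbrain median was -0.66 or -0.39 when 40 µg/L replicate 1 or 3 was left out and -0.49 or -0.09 when control 1 or 2 was. In that list 6 of the 24 genes (25%, against 13.7% of all genes) lay below all controls and 1 (4.17%, against 11.3%) above. The 1 above was cbln1, a further cerebellin, with a log2 fold change of 0.48. Of the 24 genes 9 had positive log2 fold changes, among them gabra6a at 0.10 and neurod1 at 0.12. No gene of the first 2 lists was called, against 0.238% of all genes. In the cerebellum and hindbrain list 1 gene was called, against 0.238% of all genes. This was cbln2a, a cerebellin that organises synapses (chromosome 2, 30458676 to 30460369), at 21.1, 16.6 and 14.9 CPM at 40 µg/L, against 62.7, 51.5 and 55.0 CPM in controls. It fell to a level 3.22-fold lower (log2 -1.69 ± 0.28, adjusted p = 0.0467), and it is also expressed outside the hindbrain. zic1, abundant in granule cells, was at 2167, 1435 and 2677 CPM at 40 µg/L and 3496, 3243 and 2982 CPM in controls (adjusted p = 0.256). pvalb7, a parvalbumin of Purkinje cells, was at 43.4, 39.9 and 65.9 CPM at 40 µg/L, against 126, 93.7 and 83.6 CPM in controls (adjusted p = 0.214). The share of each region in the dissected tissue is not given in the labels. An exposure effect and a difference in the tissue taken, in the forebrain too, thus cannot be told apart. In bulk RNA fewer cells of a type and less RNA per cell cannot be told apart.

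**Figure D2:**
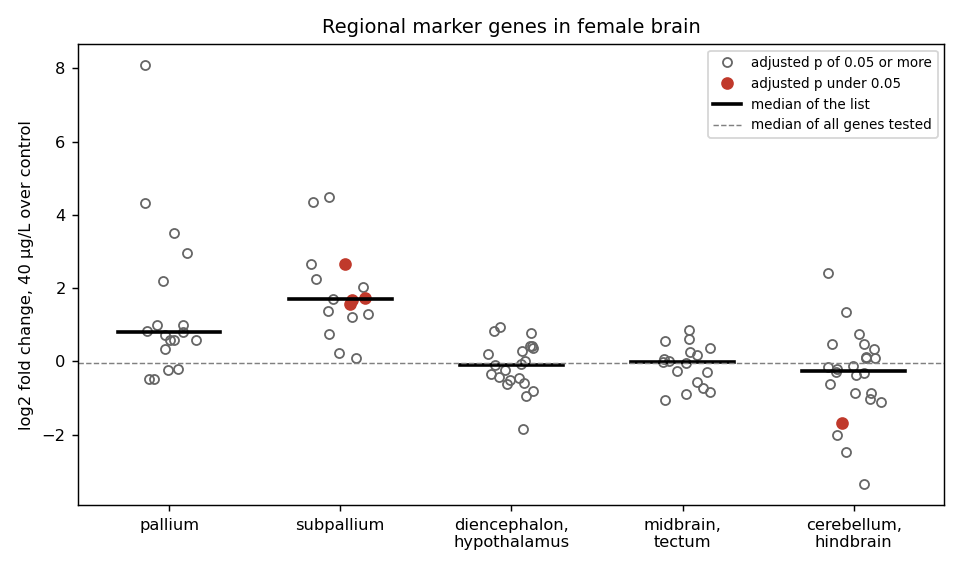
Fitted log2 fold change, 40 µg/L over control, of the reported marker genes of 5 brain regions, with called genes in red, medians of the whole lists as bars and the median of all genes (-0.03) as a dashed line. The subpallium points all lie above 0 with a median of 1.70. The pallium spreads widest only through its point at 8.09. That point is emx1, whose fitted value is no measure of size because its controls are at 0.

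The repressor side of the clock was lower at 40 µg/L and its activator arntl1a higher. nr1d1, which encodes Rev-erb alpha (chromosome 3, 23488621 to 23496220), had the smallest p of all genes: 118, 86.2 and 96.3 CPM at 40 µg/L, against 558, 612 and 532 CPM in the controls. It fell to a level 5.66-fold lower (log2 -2.50 ± 0.25, adjusted p = 0.0117). The lowest value was that of replicate 2. Its adjusted p was 0.0536, 0.0196 and 0.0698 without replicate 1, 2 or 3 at 40 µg/L and 0.0528, 0.0395 and 0.0510 without control replicate 1, 2 or 3, while the log2 fold change stayed within -2.63 and -2.40. ciarta, a repressor of Clock and Bmal (chromosome 19, 8928434 to 8940081), was at 36.5, 24.1 and 24.6 CPM at 40 µg/L and 118, 82.3 and 104 CPM in controls. It fell to a level 3.57-fold lower (adjusted p = 0.0467). arntl1a, which encodes a Bmal1 protein (chromosome 25, 17893784 to 17918536), was at 277, 234 and 279.5 CPM at 40 µg/L and 86.9, 111 and 118 CPM in the controls, and rose 2.50-fold (log2 1.32 ± 0.22, adjusted p = 0.0467).

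Among the 17 repressor genes tested, 14 had negative log2 fold changes and the median was -0.82. The 40 µg/L libraries lay below all controls at 8 of the 17 (47.1%, against 13.7% of all genes) and above them at 1 (5.88%, against 11.3%), and 2 were called, against 0.238% of all genes. nr1d2a, a second Rev-erb gene, was at 101, 68.6 and 78.2 CPM at 40 µg/L, against 229.8, 154 and 235 CPM in controls (adjusted p = 0.0752). per1a was at 78.0, 34.1 and 109 CPM at 40 µg/L and 189, 158 and 175 CPM in controls (adjusted p = 0.132), and per3 at 40.2, 55.6 and 75.6 CPM at 40 µg/L against 131, 56.5 and 145 CPM in controls (adjusted p = 0.219). The 3 exposed libraries of per1a differ from each other by more than those of nr1d1. The gene above its controls was cry3b, a cryptochrome, at 551, 423 and 533 CPM at 40 µg/L and 136, 208 and 277 CPM in controls (adjusted p = 0.0599).

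Of 11 clock output genes tested 5 were positive, with a median of -0.51 and no call, against 0.238% of all genes. Leaving out control replicate 1 put the median at -0.11, leaving out 40 µg/L replicate 1 at -0.15. dbpa, a PAR bZIP factor gene driven by the clock, was at 14.1, 16.0 and 18.3 CPM at 40 µg/L and 47.3, 27.8 and 35.9 CPM in controls (adjusted p = 0.136). usp2a, a deubiquitinase, was at 129, 133 and 122 CPM at 40 µg/L and 202, 217 and 236 CPM in controls (adjusted p = 0.0705). Of 11 activator genes 6 were positive with a median of 0.10, or of -0.36 when 40 µg/L replicate 2 and -0.05 when control 2 was left out. Among them arntl1a was the 1 called, against 0.238% of all genes. cry4, a light-responsive cryptochrome placed with them, was at 194, 124 and 196 CPM at 40 µg/L, against 59.1, 94.9 and 72.0 CPM in controls (adjusted p = 0.0599). The hour at which each brain was taken is not given, so that an exposure effect and a difference in sampling time cannot be told apart.

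**Figure D3:**
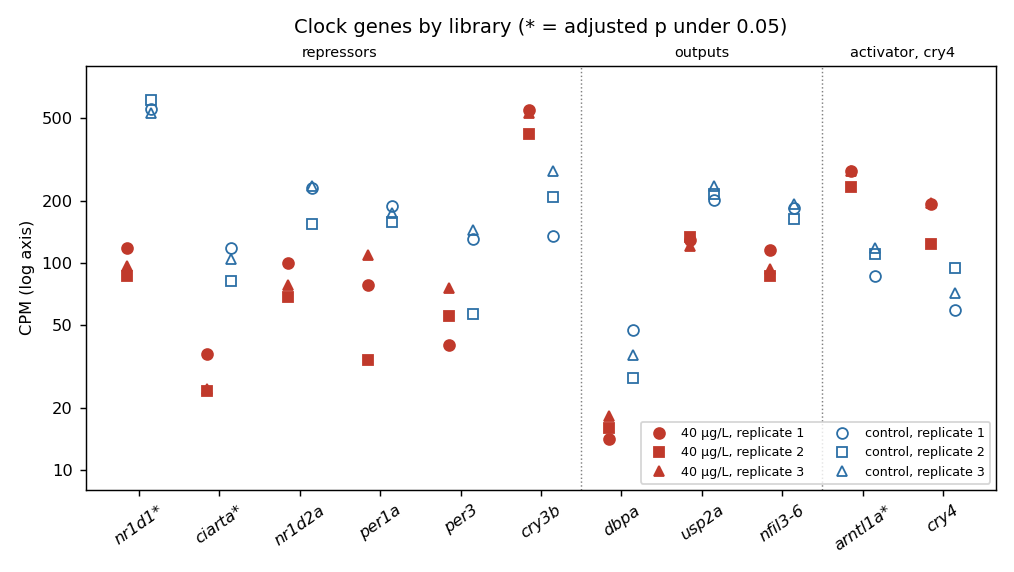
CPM of 11 clock genes in each library on a log axis, 40 µg/L (filled red) left of controls (open blue), with called genes starred. nr1d1 and ciarta lie below their controls and arntl1a above, while per3 overlaps.

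Most genes of the cytosolic ribosome were higher at 40 µg/L, though 1 alone of the 81 was called, against 0.238% of all genes. Of 81 genes of the cytosolic ribosome 73 had positive log2 fold changes, and at 62 of the 81 the 40 µg/L libraries lay above all controls and at 0 below them, against 11.3% and 13.7% of all genes. The median log2 fold change was 0.87. By library it was 0.93, 0.58 and 0.93 in replicates 1, 2 and 3 at 40 µg/L and between -0.08 and 0.15 in the controls, relative to the control mean, so that the level was lower in replicate 2 than in the other 2. rpl26, a protein of the large subunit, was at 3138, 2067 and 3267 CPM at 40 µg/L, against 1375, 1221 and 1061 CPM in the controls, and rose 2.32-fold (log2 1.21 ± 0.20, adjusted p = 0.0467). rps10 of the small subunit was at 1684, 1189.9 and 1671 CPM at 40 µg/L, against 808, 722 and 655 CPM in controls (adjusted p = 0.0505). eef2b, the elongation factor that moves the ribosome along the transcript, was at 4937, 3404 and 4523 CPM at 40 µg/L, against 2526, 2137 and 2008 CPM in controls (adjusted p = 0.0505). Together the 81 genes took 129190, 95003 and 129330 CPM at 40 µg/L and 60595 to 72080 CPM in the controls. The share of all counts in a library's 50 most abundant genes was 18.21%, 15.49% and 17.64% at 40 µg/L and 13.85% to 15.12% in the controls, and the part of this in the ribosomal result was not tested. Some of these genes are listed with an a and a b copy, between which the counting may have split reads.

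Of 74 initiation and elongation genes, eef2b among them, 41 were positive with a median of 0.10, 22 (29.7%) lay above all controls and 9 below, against 11.3% and 13.7% of all genes. Among 70 genes of the mitochondrial ribosome 34 were positive with a median of -0.06, with 15 (21.4%) above and 16 (22.9%) below all controls, against 11.3% and 13.7% of all genes. Of the 70 genes 1 was called, against 0.238% of all genes. This was mrps15, at 16.2, 15.8 and 11.99 CPM at 40 µg/L, against 37.2, 47.5 and 39.0 CPM in controls, which fell to a level 2.81-fold lower (adjusted p = 0.0467). aimp2, a scaffold of the complex that holds several tRNA synthetases, was at 167, 136 and 181 CPM at 40 µg/L and 70.4, 70.5 and 66.2 CPM in controls. It rose 2.34-fold (adjusted p = 0.0467).

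Of 84 oxidative phosphorylation genes tested 58 were positive with a median of 0.29. Of them 37 (44%) lay above all controls and 9 (10.7%) below, against 11.3% and 13.7% of all genes. Of the 84 genes 1 was called, against 0.238% of all genes, and it fell. This was atp5md, a small subunit of ATP synthase (chromosome 1, 49432148 to 49434891), at 9.77, 10.2 and 7.72 CPM at 40 µg/L, against 53.6, 99.4 and 43.7 CPM in controls. Its log2 fold change of -2.83 ± 0.46 was the lowest of the called genes, and its controls differed from each other by more than its exposed libraries. uqcr10, a small subunit of complex III, was at 100.2, 168 and 87.6 CPM at 40 µg/L, against 254, 268 and 213 CPM in controls (adjusted p = 0.0859). cox6a1 of complex IV was at 1273, 1029 and 1220.0 CPM at 40 µg/L and 688, 714 and 555 CPM in controls (adjusted p = 0.0904).

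The remaining genes that fell belong to several cell functions. 2 of them encode calcium sensors of neurons. vsnl1a, visinin-like 1 (chromosome 20, 35382391 to 35429737), was at 435, 694 and 523 CPM at 40 µg/L, against 1418, 1210.3 and 1241 CPM in controls. ncs1a, neuronal calcium sensor 1, was at 26.0, 40.1 and 25.1 CPM at 40 µg/L, against 86.4, 94.2 and 72.9 CPM in controls. vsnl1a fell to a level 2.34-fold lower and ncs1a to one 2.78-fold lower. At both, replicate 2 was the nearest of the exposed libraries to the controls.

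Among genes of protein phosphatases, ppp2cb, a catalytic subunit of phosphatase 2A, was at 20.7, 30.1 and 22.2 CPM at 40 µg/L, against 64.8, 70.8 and 58.7 CPM in controls. ppp1r7, a regulatory subunit of phosphatase 1, was at 52.7, 73.8 and 43.2 CPM at 40 µg/L, against 179, 161 and 143 CPM in controls. Both fell, by 1.41 and by 1.51 on the log2 scale. ccng1, cyclin G1, a p53 target in mammals, was at 57.9, 109.9 and 82.0 CPM at 40 µg/L, against 227, 216 and 229.6 CPM in controls, and fell by 1.43 on the log2 scale. It was the only call among 22 genes of p53 and apoptosis, against 0.238% of all genes. Of the 22 genes 8 were positive with a median of -0.39. At 6 (27.3%, against 13.7% of all genes) the 40 µg/L libraries lay below all controls and at 1 (4.55%, against 11.3%) above. ppp2cb and ccng1 are also listed on an alternative contig, so that their reads may be shared between copies.

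txnl4a, a component of the spliceosome (chromosome 19, 20793318 to 20796910), was at 6.21, 11.7 and 4.45 CPM at 40 µg/L, against 45.9, 44.5 and 38.1 CPM in controls, and fell to a level 5.75-fold lower. Of 41 spliceosome genes 24 were positive with a median of 0.16, and txnl4a was the 1 called, against 0.238% of all genes. Above all controls lay 9 of the 41 (22%, against 11.3% of all genes) and below them 7 (17.1%, against 13.7%). ndfip1l, related to the adaptors that recruit Nedd4 ubiquitin ligases, was at 15.5, 30.0 and 17.5 CPM at 40 µg/L, against 92.6, 162 and 97.8 CPM in controls. It fell to a level 5.59-fold lower. atg3, the enzyme that couples Atg8 proteins to lipid in autophagy, was at 26.8, 30.5 and 22.7 CPM at 40 µg/L and 60.5, 66.6 and 61.4 CPM in controls.

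tmsb4x, thymosin beta 4, which binds actin monomers, was the most abundant of the genes that fell, at 959.9, 1399.8 and 916 CPM at 40 µg/L against 2781, 2618 and 2462 CPM in controls. hmga1b, a chromatin protein, was at 71.2, 85.1 and 65.2 CPM at 40 µg/L, against 221, 158 and 251 CPM in controls. The rest of those that fell carry only locus names, si:ch211-133n4.4, zgc:175284 and zgc:86811, with log2 fold changes of -1.23, -1.66 and -2.02. The adjusted p of each of these called genes, from vsnl1a on, was 0.0467.

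Other genes that rose were traf4b, cdcp1a, prickle2b and tubb4b. traf4b, a TRAF family signalling adaptor (chromosome 21, 39005909 to 39024739), was at 14.6, 21.9 and 21.6 CPM at 40 µg/L, against 1.27, 0.210 and 0.932 CPM in the controls. It rose (adjusted p = 0.0467), and its controls lie too low for a fold. cdcp1a, a transmembrane protein with CUB domains, was at 43.6, 67.6 and 51.3 CPM at 40 µg/L, against 20.7, 13.5 and 15.2 CPM in controls. prickle2b, of the planar cell polarity pathway, was at 189, 256 and 138 CPM at 40 µg/L, against 69.6, 73.8 and 70.5 CPM in controls. traf4b, cdcp1a and prickle2b were highest in replicate 2. tubb4b, a beta tubulin, was at 3213, 2542 and 3278 CPM at 40 µg/L, against 1546, 1636 and 1451 CPM in controls, and rose 1.95-fold, the smallest fold of the called genes.

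Synaptic genes other than those above showed no call, against 0.238% of all genes. Of 24 glutamate receptor genes 19 were positive with a median of 0.22, of 16 GABA genes 6 with a median of -0.20, of 41 voltage-gated channel genes 16 with a median of -0.16, and of 25 presynaptic genes 12 with a median of -0.06. gphnb, a gephyrin that anchors inhibitory receptors, was at 303, 328 and 246 CPM at 40 µg/L, against 90.4, 147 and 116 CPM in controls (adjusted p = 0.0517). syt1a, the calcium sensor of vesicle release, was at 1124, 1488 and 1014 CPM at 40 µg/L, against 1748, 1969.9 and 2143 CPM in controls (adjusted p = 0.114). gap43, a protein of growing axons, was at 1296, 848 and 1038 CPM at 40 µg/L, against 615, 524 and 492 CPM in controls (adjusted p = 0.0512).

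No gene of the stress lists was called, against 0.238% of all genes. Heat shock and endoplasmic reticulum genes had 18 of 30 positive with a median of 0.12, glutathione, thioredoxin and Nrf2 genes 14 of 28 with a median of 0.00. Interferon and inflammation genes had 14 of 30 positive with a median of -0.24, and immediate early genes 17 of 27 with a median of 0.25. Of the 30 heat shock genes 8 (26.7%) lay above all controls and 4 (13.3%) below, against 11.3% and 13.7% of all genes. The sums of that list were 8830 to 10134 CPM at 40 µg/L and 6678.5 to 7568 CPM in controls, which do not overlap. For glutathione, thioredoxin and Nrf2 genes 5 (17.9%) lay above and 7 (25%) below, for immediate early genes 5 (18.5%) and 1 (3.7%). mt2, a metallothionein, was at 3.31, 4.85 and 3.25 CPM at 40 µg/L and 21.2, 25.7 and 8.39 CPM in controls (adjusted p = 0.0806). prdx1, a peroxiredoxin that reduces hydrogen peroxide, was at 47.4, 29.3 and 22.9 CPM at 40 µg/L, against 83.9, 65.1 and 59.4 CPM in controls (adjusted p = 0.110). junba, an AP-1 subunit induced by stimulation, was at 104, 107 and 214 CPM at 40 µg/L, against 40.4, 54.4 and 42.7 CPM in controls (adjusted p = 0.107).

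Medians over further lists were 0.15 over 52 proteasome genes, 0.18 over 25 postsynaptic and adhesion genes, 0.12 over 30 neuropeptide genes and -0.16 over 22 genes of xenobiotic metabolism. They were -0.27 over 20 genes of glucocorticoid and sex steroid signalling, -0.10 over 24 genes of cholesterol and myelin lipid synthesis and 0.60 over 8 neurotrophin genes. The neurotrophin median turned to -0.04 without 40 µg/L replicate 3, to -0.06 with a filter of 1 CPM, to -0.04 with the replicate block and to -0.61 with counts divided by 4. Except with the block, the neurotrophin genes that pass the filter can differ in these fits. Over the 8 genes the medians by library, relative to the control mean, were 0.05, 0.27 and 0.69 at 40 µg/L and -0.03 to 0.23 in controls. No gene of these lists was called, against 0.238% of all genes. Of the 52 proteasome genes 13 (25%) lay above all controls and 7 (13.5%) below, against 11.3% and 13.7% of all genes. Of the 30 neuropeptide genes 0 lay above and 6 (20%) below. In the list of monoamine and cholinergic genes drd3 was the 1 called of 28, against 0.238% of all genes. The median of the 28 was -0.21. th2, a tyrosine hydroxylase gene of catecholamine synthesis, was at 5.51, 5.49 and 6.32 CPM at 40 µg/L, against 38.2, 29.5 and 23.9 CPM in controls (log2 -2.40 ± 0.59, edgeR adjusted p = 0.0909). Its groups lay apart, and the value did not pass over all genes.

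**Figure D4:**
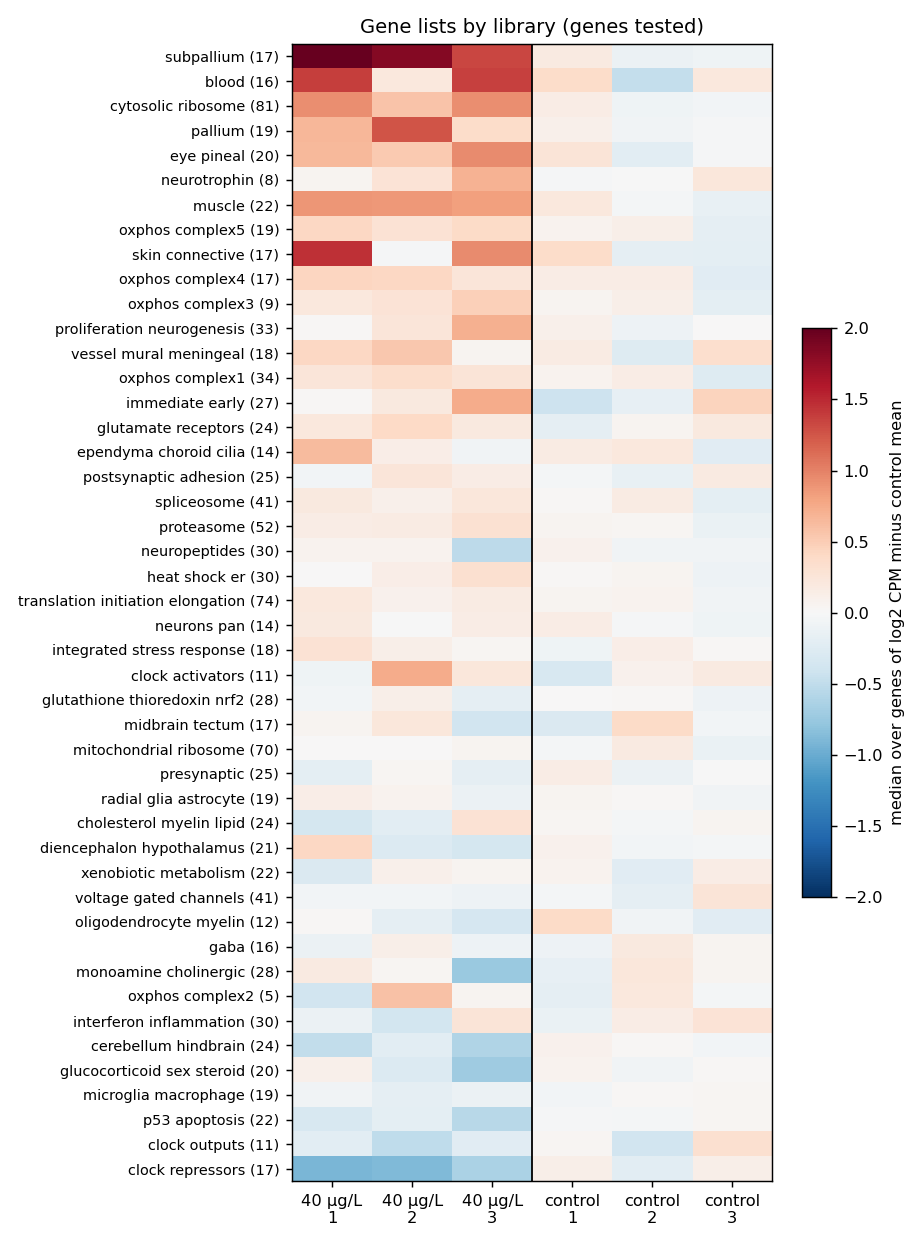
Median over the tested genes of each list of log2 CPM minus the control mean, by library, with the number of genes in brackets (red higher, blue lower; lists ordered by their fitted median log2 fold change, high to low). The subpallium row is dark red in all 3 exposed libraries (1.99, 1.84 and 1.33), while the blood and skin rows are pale in 40 µg/L replicate 2.

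Markers of glia and of proliferation gave no call, against 0.238% of all genes. Medians were -0.07 over 19 radial glia and astrocyte genes, -0.20 over 12 oligodendrocyte genes, -0.28 over 19 microglia genes (0.00 with mpeg1.2, at 0 in all exposed libraries, set to its bound) and 0.33 over 33 genes of proliferation and neurogenesis. Blood and skin markers varied with single libraries. Blood genes had 14 of 16 positive with a median of 1.05 (0.05 with replicate 2 alone), and their summed level was 12923, 2076 and 5279.7 CPM in replicates 1, 2 and 3 at 40 µg/L and 1036 to 2213 CPM in controls. hbba1, a beta globin, was at 8851, 1371 and 3597 CPM at 40 µg/L, against 1414, 628 and 849 CPM in controls (adjusted p = 0.363). Skin and connective tissue genes had 15 of 17 positive with a median of 0.41 (-0.19 when replicate 2 alone stands for 40 µg/L) and sums of 2089.5, 497 and 723 CPM at 40 µg/L and 402 to 529 CPM in controls. At 2 of the 16 blood genes (12.5%) and 2 of the 17 skin genes (11.8%) the 40 µg/L libraries lay above all controls, against 11.3% of all genes. They lay below at 0 of either list, against 13.7%. krt91, a keratin, was at 989, 8.77 and 104 CPM at 40 µg/L and 8.21, 43.1 and 7.98 CPM in controls (adjusted p = 0.507). Muscle genes had 15 of 22 positive with a median of 0.53. This median was 0.05 with replicate 2 alone, 0.12 when 40 µg/L replicate 1 and 0.11 when control 3 was left out. The filter was applied anew in these refits, as in those for blood and skin, so that the genes under these medians can differ. Of the 22 muscle genes 6 (27.3%, against 11.3% of all genes) lay above all controls and 0 below, against 13.7% of all genes. The muscle sums were 295 to 368 CPM at 40 µg/L and 185 to 242 CPM in controls, which do not overlap. By library, over the same 22 genes, the muscle median was 0.88, 0.87 and 0.82 at 40 µg/L and -0.15 to 0.21 in controls. In replicate 2 the blood and skin sums were the lowest of the exposed libraries. Of these libraries replicate 2 was the farthest from the controls for nr1d1 and the nearest for arntl1a. Eye and pineal genes had 17 of 20 positive with a median of 0.79 (0.70 with bounds). At 0 of the 20 the 40 µg/L libraries lay above all controls, against 11.3% of all genes, and at 1 (5%) below, against 13.7%. The eye and pineal sums were 291 to 434 CPM at 40 µg/L and 193 to 199 CPM in controls, with 15 or 16 of the 35 listed in the table at 0 in each exposed library and 11 to 18 in the controls. The part of these tissues in the calls was not tested.

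At 200 µg/L the same control libraries serve, so the values are set beside those of 40 µg/L without a count of shared directions. nr1d1 was at 171, 108 and 216 CPM there (log2 -1.78 against control, edgeR adjusted p = 0.0330) and ciarta at 18.2, 29.6 and 19.8 CPM (log2 -2.17, adjusted p = 0.0282). arntl1a was at 176, 298 and 244 CPM (log2 1.18, adjusted p = 0.0949). 3 forebrain genes lay below every 40 µg/L library there, with sp9 at 13.9, 6.64 and 12.5 CPM, dlx1a at 36.7, 57.1 and 41.8 CPM and eomesa at 114, 11.2 and 44.5 CPM. vsnl1a at 1164, 1068 and 1377 CPM, txnl4a at 43.6, 49.6 and 81.2 CPM and tubb4b at 1606, 1898 and 1585 CPM did not reach the levels of the 40 µg/L libraries in any 200 µg/L library. The difference between the doses was not tested here.

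Males at 40 µg/L share no library with the females, and their fit called 1947 of 12454 genes, which is 15.6%. All 30 genes called in females had a log2 fold change of the same sign in males. That sign was shared by 67.9% of the 12129 genes tested in both sexes and by 82.1% of the 3089 whose female groups did not overlap. At 22 of the 30 the male groups did not overlap in the same direction, against 35.8% over all genes tested in both sexes, and 16 were called in males too. The count of the same sign was 28 to 30 when any 1 male library was left out, whereas the count also called in males was 3, 3 and 6 without male control 1, 2 or 3 and 13 or 14 without a male library at 40 µg/L. The male libraries at 40 µg/L were also of low complexity, with a rare-gene median of 39 to 132 against 8 to 9 in male controls, and the part of this was not tested.

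The sizes differed between genes. arntl1a was at 331, 260.4 and 266 CPM in males at 40 µg/L, against 61.8, 84.8 and 66.4 CPM in male controls (log2 2.01 ± 0.19, adjusted p = 0.00838). nr1d1 was at 91.4, 63.6 and 139.8 CPM in males at 40 µg/L and 249.5, 244 and 348 CPM in male controls (log2 -1.51 ± 0.31, adjusted p = 0.0250). Male nr1d1 controls thus lay below the female ones, and the exposed levels of the sexes overlapped. sp9 was at 45.3, 57.6 and 39.2 CPM in males at 40 µg/L, against 21.8, 30.1 and 11.0 CPM in male controls (adjusted p = 0.0851). prickle2b was at 109.8, 205 and 164 CPM in males at 40 µg/L and 143, 163 and 135 CPM in male controls (log2 0.12 ± 0.24), and ppp2cb had a male log2 fold change of -0.03 ± 0.63. CPM of the sexes come from separate fits with separate scaling, and the difference of the effect between the sexes was not tested.

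**Figure D5:**
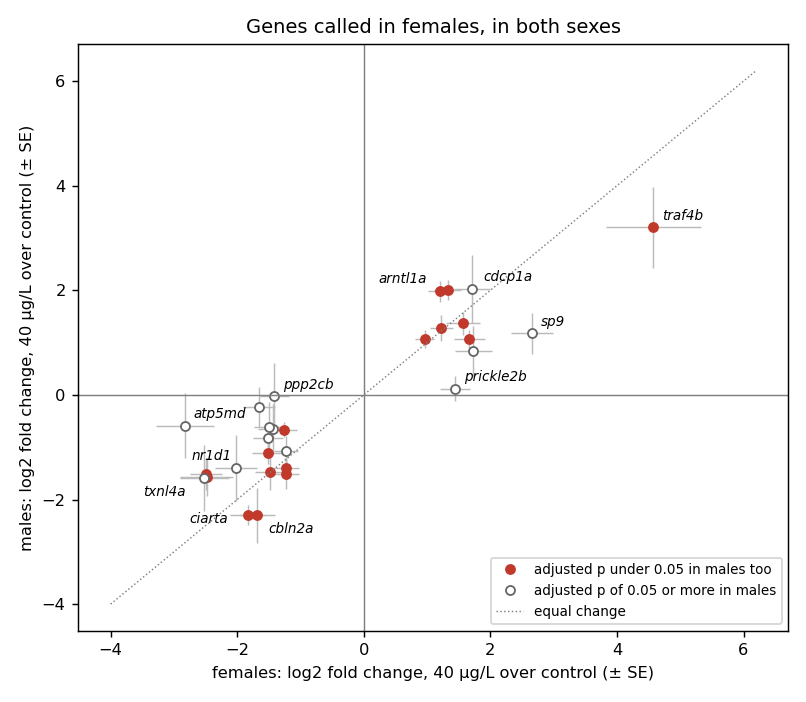
Log2 fold change of 29 genes called in females, 40 µg/L over control, in females (x axis) and males (y axis), with standard errors and a dotted line of equal change. No point has opposite signs in the sexes, and prickle2b and ppp2cb lie near 0 in males, at 0.12 and -0.03.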

How the data were processed

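Brain poly(A) RNA was measured in 15 libraries. The deposited values are whole-number counts per gene symbol and library. Whether they were scaled before deposit is not known. The tools listed per the submitters' processing notes, with neither version nor role, are DESeq2, FastQC, Picard, STAR and StringTie. Genome build and annotation of the printed positions are not given in the sources used for this work. Small values pile up at multiples of 4, for which no reason is recorded. The 200 µg/L counts stand in a second table, in which the female controls are repeated with identical values. Of 14971 symbols 14037 (93.8%) matched a RefSeq symbol.

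Counts of the 9 female libraries were fitted together in R 4.3.3 with edgeR 4.0.16 (filterByExpr, TMM factors, robust quasi-likelihood F test, Benjamini-Hochberg over 12601 genes, threshold 0.05), the 6 male libraries apart. The filter left out 2370 symbols. CPM use the TMM factors, and standard errors were approximated from each log2 fold change and its F statistic (the absolute change over the root of F). The procedure was run on simulated counts. These held no difference in complexity between libraries, so that the run cannot tell how the test behaves with libraries of low complexity. With 3 libraries against 3 an exact permutation test cannot give less than 0.1, so none was run for single genes.

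Named are called genes, the 3 members of each list with the smallest p and a fixed set of clock and forebrain genes. Members and lists were chosen with earlier results of these data known. emx1 and nr1d2a were named after their values were seen, as were neurod2, zbtb18, cbln1, gabra6a and neurod1. Some genes of the fixed set and the lists are not reported here, though counts, sums and medians include them. Alternatives were DESeq2 1.42.0, limma-voom (limma 3.58.1), other scalings, filters, dispersions, thresholds and library sets, counts divided by 4, a covariate holding each library's rare-gene median, and the replicate number as a block.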

Additional observations from a re-analysis of the deposited data

Results flagged for a closer look

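ntrk2a, which encodes a TrkB receptor of the neurotrophin Bdnf, separated the groups in opposite directions in the sexes. In females it was at 106, 128 and 107 CPM at 40 µg/L, against 59.5, 71.8 and 58.7 CPM in controls (log2 0.84 ± 0.21, edgeR adjusted p = 0.0995). In males it was at 39.4, 34.5 and 60.7 CPM at 40 µg/L, against 109, 139 and 81.0 CPM in controls (log2 -1.29 ± 0.30, adjusted p = 0.0340). The difference between the sexes was not tested. Such opposite separation was found at 91 of 12129 genes tested in both sexes, and separation in the same direction at 1594.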

How the results depend on the processing

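The count of 30 called genes moved with most choices of test. It was 795 with DESeq2, 210 with limma-voom, 98 with no filter on low counts, 144 with all 15 libraries in the fit and 125 with counts divided by 4, and each of these but the fit of 15 libraries, which shared 23, held all 30. It was 19 with only the 2 groups in the fit (11 shared), 1 with non-robust dispersion (nr1d1), 2 with a covariate for each library's rare-gene median (1 shared, prickle2b) and 0 with replicate 2 alone for 40 µg/L, where 644 had an unadjusted p under 0.05. The cause was not tested. At an adjusted p under 0.01 it was 0 and under 0.1 it was 303. Leaving out 1 of the 9 libraries gave 0 to 289. Other scalings, a filter of 1 CPM and a minimum log2 fold change of 1 gave 29 to 33. With the replicate block 0 genes were called and 1692 had an unadjusted p under 0.05, against 1933 without it. Same-numbered libraries did not deviate together (correlations of -0.01, -0.06 and -0.04). With 3 libraries a group, which differ in complexity, this cannot decide whether the numbers pair the samples. No direction of the 30 genes changed in 660 values. Of the other named genes followed through the alternatives, krt91 alone changed sign, to a log2 of -1.18 with replicate 2 alone. neurod2, zbtb18, cbln1, gabra6a and neurod1 were not followed, so the stability of their signs is not known. The list medians lay between 1.58 and 1.88 for the subpallium, 0.43 and 1.25 for the pallium, -0.94 and -0.71 for clock repressors, 0.55 and 0.96 for the cytosolic ribosome, 0.05 and 1.45 for blood and -0.09 and 1.39 for eye and pineal. The filter was applied anew in each setting, so that the members tested can differ. Low complexity, in spite of greater depth, limits genes of a few CPM, where a rare gene in such a library comes in steps of many counts.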
